A study of Mus musculus with 6 samples.

Results

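The CXC and CX3C chemokine genes were examined in primary mouse microglia (PM) treated with GSK-J4, with or without LPS. The members are the 9 Cxcl genes Cxcl1, Cxcl2, Cxcl3, Cxcl9, Cxcl10, Cxcl11, Cxcl12, Cxcl14 and Cxcl16 and the fractalkine gene Cx3cl1, taken by gene symbol and not by their values. They make up 10 of the 24411 genes in the count tables, of which 7 had enough counts to be tested. The tables list 6 further CXC ligand genes, which are given with the receptors. RNA-seq libraries of PM given GSK-J4 (10 μM) and of PM given LPS (10 ng/ml) together with GSK-J4 (10 μM) were compared at 4-h, with 3 libraries in each group. GSK-J4 is an inhibitor of the H3K27 demethylase JMJD3, LPS is a bacterial cell wall component that activates Toll-like receptor 4, and PM are microglia shaken from mixed glial cultures of pooled whole brains of 3-day-old ICR mice. Both groups carried GSK-J4, and untreated and LPS-only PM were not analysed here. Each difference below is therefore between PM with and without LPS in the presence of the inhibitor, and not the effect of the inhibitor.

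Chemokines are small secreted or membrane-bound proteins that bind G protein-coupled receptors and direct the movement of leukocytes. CXC ligands with the ELR motif (glutamate, leucine, arginine) act on Cxcr2 and draw neutrophils, the interferon-inducible ligands of Cxcr3 draw activated T cells and NK cells, and Cxcl12, Cxcl14 and the membrane-anchored Cxcl16 and Cx3cl1 are made in resting tissue. In the brain, neurons are the known main source of Cx3cl1 and microglia carry its receptor Cx3cr1, while activated microglia and astrocytes are known sources of Cxcl1, Cxcl2 and Cxcl10.

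3 members were up-regulated in LPS + GSK-J4, namely Cxcl1, Cxcl2 and Cxcl10, with log2-fold changes of 5.78, 4.33 and 6.19. Cxcl12 was higher at the adjusted p threshold with a log2-fold change of 1.04, below the fold threshold. Cxcl14, Cxcl16 and Cx3cl1 did not pass the test, and Cxcl3, Cxcl9 and Cxcl11 had too few counts to be tested. Genes were called where the adjusted p (quasi-likelihood test of edgeR, Benjamini-Hochberg adjustment) did not exceed 0.01 and the log2-fold change was 1.5 or more in either direction. The 3 calls stand beside 2.95% of the 10133 genes tested that were called up-regulated. None of the members was down-regulated. The 7 tested members had a median log2-fold change of 1.12, and all genes tested had one of -0.0006. Cxcl1, Cxcl10 and Cx3cl1 passed the filter only with their counts in LPS + GSK-J4. The number of called members among those tested and their median are therefore descriptions.

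**Figure D1:**
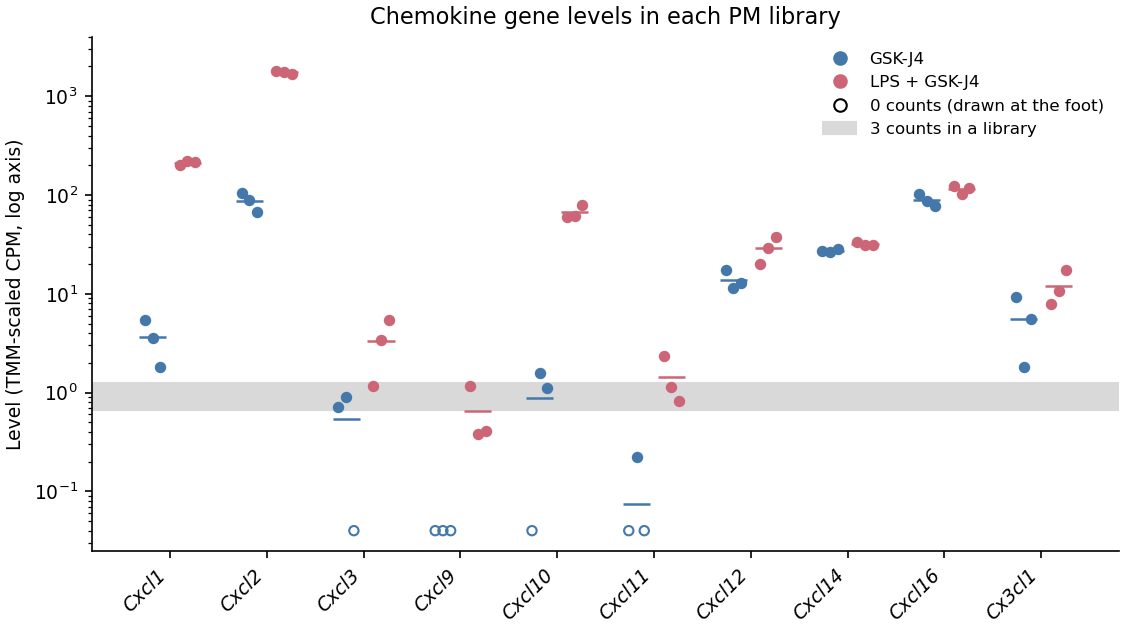
Level of each chemokine gene in the 6 PM libraries, in TMM-scaled CPM (counts per 1000000) on a log axis; points are libraries, short lines are group means, open points are libraries with 0 counts drawn at the foot, and the grey band is the level of 3 counts. Cxcl1, Cxcl2 and Cxcl10 stand apart between GSK-J4 (blue) and LPS + GSK-J4 (red), while Cxcl9 and Cxcl11 lie near or below the band.

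The libraries held between 2597505 and 3472716 counts on genes, and 3 counts in a library, used as the lower limit, equal 0.673 to 1.24 CPM after TMM scaling (trimmed mean of M values). The ribosomal RNA precursor Rn45s took 22.2 to 32.4% of the counts in GSK-J4 and 45.8 to 48.1% of those in LPS + GSK-J4. The 8 microglial markers used were all measured, with Csf1r at 758 ± 10.3 and Itgam at 214 ± 8.33 CPM (SD, n = 3) in GSK-J4, while Tmem119 and P2ry12, markers of microglia in the intact brain, were at 5.01 ± 2.01 and 13.2 ± 1.88 CPM. The summed level of the microglial markers was 2025 to 2038 CPM in GSK-J4 and 1632 to 1715 CPM in LPS + GSK-J4. The 7 astrocyte markers summed to 51.2 to 56.5 CPM in GSK-J4 and 126 to 153 CPM in LPS + GSK-J4, with Gfap up-regulated from 16.8 ± 2.34 to 54.4 ± 11.8 CPM (log2-fold change 1.70, adjusted p = 9.28e-06). The 8 markers of the oligodendrocyte lineage summed to 182 to 212 CPM in GSK-J4 and 352 to 402 CPM in LPS + GSK-J4. All 6 of them that were tested had positive log2-fold changes, and none was called. The markers of neutrophils and of T and B cells summed to at most 4.96 and 4.49 CPM in any library. In these bulk libraries, fewer cells of a type and less RNA per cell cannot be told apart. The p-values measure the spread between these samples, which the labels do not tie to separate animals.

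Sequences of the promoters are shown first, because Cxcl1, Cxcl2 and Cxcl3 lie together on chromosome 5 and Cxcl9, Cxcl10 and Cxcl11 lie together 1542 kb away, and yet only some genes of each cluster were called. The sequences are from RefSeq (GRCm38.p6, the assembly of mm10), which had an entry for 8 of the 10 members, and run 5′ to 3′ on the strand of the gene. Each begins 250 bases before the RefSeq start and ends before the first base that GENCODE places in the gene. The positions are chr5:90890995-90891240 (plus strand) for Cxcl1, chr5:90903649-90903870 (plus strand) for Cxcl2, chr5:90785851-90786100 (plus strand) for Cxcl3, chr5:92328080-92328329 (minus strand) for Cxcl9 and chr5:92348890-92349139 (minus strand) for Cxcl10. Capitals mark matches to a κB motif (the binding sequence of NF-κB), the core GAAANNGAA of the interferon-stimulated response element, the AP-1 motif TGANTCA or the TATA box motif TATAAA, wherever it lies.
Cxcl1: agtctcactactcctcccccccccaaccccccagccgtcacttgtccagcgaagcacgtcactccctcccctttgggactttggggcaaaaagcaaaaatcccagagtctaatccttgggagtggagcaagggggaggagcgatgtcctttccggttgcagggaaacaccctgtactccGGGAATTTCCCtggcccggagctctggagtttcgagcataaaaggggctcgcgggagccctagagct
Cxcl2: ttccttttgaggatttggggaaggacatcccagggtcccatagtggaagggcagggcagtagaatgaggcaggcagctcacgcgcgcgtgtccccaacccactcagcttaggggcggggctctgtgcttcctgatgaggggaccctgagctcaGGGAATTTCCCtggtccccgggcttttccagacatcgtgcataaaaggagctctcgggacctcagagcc
Cxcl3: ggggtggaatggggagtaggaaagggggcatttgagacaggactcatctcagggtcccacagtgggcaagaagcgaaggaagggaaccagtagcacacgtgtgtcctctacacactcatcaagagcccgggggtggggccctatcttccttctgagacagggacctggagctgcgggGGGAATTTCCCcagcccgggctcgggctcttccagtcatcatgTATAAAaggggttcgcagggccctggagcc
Cxcl9: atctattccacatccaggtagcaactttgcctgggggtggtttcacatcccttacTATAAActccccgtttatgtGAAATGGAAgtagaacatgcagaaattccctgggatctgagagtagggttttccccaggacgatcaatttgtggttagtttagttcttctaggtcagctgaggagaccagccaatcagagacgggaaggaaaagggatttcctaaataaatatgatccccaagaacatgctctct
Cxcl10: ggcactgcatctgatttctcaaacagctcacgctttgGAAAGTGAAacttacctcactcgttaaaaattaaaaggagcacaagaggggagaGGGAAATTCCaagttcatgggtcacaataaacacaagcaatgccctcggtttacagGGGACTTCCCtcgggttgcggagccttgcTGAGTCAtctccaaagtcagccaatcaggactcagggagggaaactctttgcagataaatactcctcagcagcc

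Motifs were searched in the 250 bases before the RefSeq start, on both strands except for the TATA box, which was read on the strand of the gene. The ELR ligand genes held the same stretch of 11 bases, GGGAATTTCCC, in which overlapping κB matches lie on both strands. It began 71 bases before the RefSeq start of Cxcl1, 97 before that of Cxcl2 and 73 before that of Cxcl3. The printed sequences of Cxcl1 and Cxcl2 stop short of the RefSeq start, after 246 and 222 bases. Measured from the end of the printed sequence, the stretch of these 2 genes therefore lies nearer. Cxcl10 had 2 κB matches, GGGAAATTCC beginning 159 and GGGACTTCCC beginning 103 bases before its start, an interferon response core beginning 213 bases before it and an AP-1 match beginning 74 bases before it. Cxcl9 had an interferon response core beginning 175 bases before its start, a TATAAA beginning 195 bases before it and no κB match in this window. The κB motif searched was GGGRNWYYCC, where R is A or G, W is A or T, Y is C or T and N is any base. A κB match was present in 4 of the 8 members with a sequence and in 3.90% of the 32851 RefSeq windows of the same length. The 4 include the clustered genes Cxcl1, Cxcl2 and Cxcl3, whose matches lie in the same stretch and are not independent cases. The interferon response core was found in 3 members (Cxcl9, Cxcl10 and Cxcl14) and in 7.13% of all windows, the AP-1 motif in 1 member and in 6.75%, TATAAA in 3 members and in 7.59%, and the interferon-gamma activated sequence TTCNNNGAA in 1 member (Cxcl14) and in 7.02%. The κB stretch was thus shared by the called genes Cxcl1 and Cxcl2 and by Cxcl3, which had at most 13 counts in any library. TATAAA began 30 bases before the RefSeq start of Cxcl3, 195 before that of Cxcl9 and 6 before that of Cx3cl1. A match describes the letters and not binding of the factor.

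Of the ELR ligands, Cxcl2 had the highest level in both groups. Cxcl2 (chr5:90903871-90905938, plus strand), which encodes MIP-2 and attracts neutrophils through Cxcr2, was at 104, 89.3 and 66.7 CPM in GSK-J4 replicates 1, 2 and 3 and at 1804, 1771 and 1672 CPM in LPS + GSK-J4. The lowest LPS + GSK-J4 library was far above the highest GSK-J4 library, and the log2-fold change was 4.33 (SE 0.15, adjusted p = 4.77e-12), or 20.1-fold. Over the alternative settings its log2-fold change lay between 4.18 and 4.47.

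Cxcl1 (chr5:90891241-90893115, plus strand), which encodes KC and acts on the same receptor, was low in GSK-J4, with 5.43, 3.59 and 1.83 CPM from 23, 16 and 5 counts. It reached 201, 222 and 214 CPM in LPS + GSK-J4, from 516, 583 and 518 counts. The groups did not overlap, and the log2-fold change was 5.78 (SE 0.21, adjusted p = 9.49e-12), or 55.1-fold. The levels of Cxcl1 and Cxcl2 lay closer together in LPS + GSK-J4. Per kb of exons, the level of Cxcl2 was 17.3, 22.6 and 33.0 times that of Cxcl1 in the GSK-J4 libraries and 8.12, 7.22 and 7.09 times that of Cxcl1 in the LPS + GSK-J4 libraries, and a 2-sided exact permutation test of this ratio gave p = 0.1, the lowest that is possible with 3 libraries per group.

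Cxcl3 (chr5:90786103-90789600, plus strand), the closest relative of Cxcl2 among the members, had 3, 4 and 0 counts in GSK-J4 and 3, 9 and 13 counts in LPS + GSK-J4. These equal at most 0.898 CPM in GSK-J4 and 1.17, 3.43 and 5.37 CPM in LPS + GSK-J4, and in LPS + GSK-J4 replicate 1 the gene was no higher than the lower limit. The ratio of the summed, scaled counts was 5.36 with a 95% interval of 2.26 to 14.7, which covers counting error only. Cxcl3 was not tested under the filter on low counts. Without the filter it had a log2-fold change of 2.32 (SE 0.66, adjusted p = 0.0050) and was called, as were 4 of the 10 members against 2.10% of the 18016 genes then tested, but the DESeq2 Wald test gave an adjusted p of 0.0683. Its transcripts share 1.88% of their 100-base stretches with those of Cxcl2, and a fragment that falls in such a stretch cannot be assigned to either gene.

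Of the ligands of Cxcr3, Cxcl10 alone was called. Cxcl10 (chr5:92346638-92348889, minus strand), which encodes IP-10, had 0, 7 and 3 counts in GSK-J4 and 152, 162 and 194 counts in LPS + GSK-J4. Its level was 0, 1.57 and 1.10 CPM in the GSK-J4 libraries, close to the lower limit, and 59.3, 61.8 and 80.1 CPM in the LPS + GSK-J4 libraries, with no overlap. The log2-fold change was 6.19 (SE 0.36, adjusted p = 3.67e-09), and it lay between 5.55 and 7.13 when libraries were left out in turn. Because the starting level rested on 10 counts, the ratio of the summed counts, 76.3, had a 95% counting interval of 41.1 to 160.1. The gene lies inside the locus of Art3 on the opposite strand, and Art3 had 0 counts in every library.

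Cxcl9 (chr5:92321347-92328079, minus strand), the ligand known as MIG, had 0 counts in all GSK-J4 libraries and 3, 1 and 1 counts in LPS + GSK-J4. Both groups were at or under the lower limit of 3 counts per library, so no fold change is given. The summed counts were 0 and 5, and the 95% counting interval of their scaled ratio began at 1.38, which covers counting error only. Cxcl11 (chr5:92359544-92365485, minus strand), the ligand known as I-TAC, had 0, 1 and 0 counts in GSK-J4 and 6, 3 and 2 counts in LPS + GSK-J4. The ratio of its summed, scaled counts was 16.5, with a 95% counting interval of 2.40 to 711. The annotation lists Cxcl11 as a polymorphic pseudogene, and without the filter its adjusted p was 0.0251. Per kb of exons, Cxcl10 was at 29.8 ± 5.04 CPM in LPS + GSK-J4 (SD, n = 3), while Cxcl11 was at 0.379 ± 0.211 and Cxcl9 at 0.217 ± 0.148.

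Cxcl12, Cxcl14, Cxcl16 and Cx3cl1 were detected in every library, with log2-fold changes between 0.22 and 1.12. Cxcl12 (chr6:117168535-117181367, plus strand), the ligand of Cxcr4 and of the scavenging receptor Ackr3, was at 17.5, 11.4 and 12.8 CPM in GSK-J4 and at 19.9, 29.4 and 37.2 CPM in LPS + GSK-J4. The groups did not overlap, although the LPS + GSK-J4 libraries spread from just above the highest GSK-J4 library well beyond it. The log2-fold change was 1.04 (SE 0.24, adjusted p = 0.0050), and 8.42% of the genes tested were higher with an adjusted p of 0.01 or less. The adjusted p rose to 0.0319 without GSK-J4 replicate 2, to 0.0174 without GSK-J4 replicate 3 and to 0.0268 without LPS + GSK-J4 replicate 2.

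Cx3cl1 (chr8:94772009-94782427, plus strand), which encodes fractalkine, was at 9.20, 1.796 and 5.50 CPM in GSK-J4 and at 7.81, 10.7 and 17.3 CPM in LPS + GSK-J4. GSK-J4 replicate 1 lay above LPS + GSK-J4 replicate 1, so the groups overlapped, and the log2-fold change of 1.12 (SE 0.43) had an adjusted p of 0.0754. Without GSK-J4 replicate 1 it was 1.82 and called (adjusted p = 0.0093). Without GSK-J4 replicate 2 or LPS + GSK-J4 replicate 3 it was 0.64 and 0.76, with adjusted p-values of 0.273 and 0.277. Without the filter on low counts the adjusted p was 0.0056 at a log2-fold change of 1.06.

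Within each group, the library with the most Cxcl12 and Cx3cl1 was also that with the most mesenchymal transcripts. The summed level of 6 markers of fibroblasts and mesenchymal cells (Col1a1, Col1a2, Col3a1, Dcn, Lum and Pdgfrb) was 281, 80.1 and 94.2 CPM in GSK-J4 replicates 1, 2 and 3 and 138, 241 and 427 CPM in LPS + GSK-J4. None of the 6 was called, and in each of them the groups overlapped. The highest library of each group in this sum was the highest in Cxcl12 and in Cx3cl1, and the lowest was the lowest in both. The summed level of 4 endothelial markers was 17.7, 13.9 and 15.8 CPM in GSK-J4 and 21.5, 37.4 and 57.0 CPM in LPS + GSK-J4. This sum put the libraries of each group in the same order. In LPS + GSK-J4, but not in GSK-J4, the summed microglial markers and the summed astrocyte markers gave this order too. Cxcl14 and Cxcl16 followed neither the mesenchymal nor the endothelial order in either group. These orders were picked after Cxcl12, Cxcl14, Cxcl16 and Cx3cl1 had each been compared with every marker list. With 3 libraries per group, shared orders are a description. Of the endothelial markers, Cdh5 alone was tested, and it was called (log2-fold change 1.504, adjusted p = 0.0031). Cdh5 made up most of the endothelial sum, with means of 12.3 CPM without LPS and 35.2 CPM with it. The means of Kdr were 2.47 and 2.61 CPM, and those of Pecam1 were 1.01 and 0.790 CPM. By themselves, Kdr and Pecam1 did not put the libraries in the mesenchymal order in either group, and Cldn5 was at 0 counts throughout. The endothelial order is therefore largely that of Cdh5. The 5 neuronal markers summed to 14.8 to 19.1 CPM in GSK-J4 and 32.4 to 40.6 CPM in LPS + GSK-J4, with Rbfox3, Snap25 and Syt1 at no more than 5 counts in a library. The part of these cells in the levels of Cxcl12 and Cx3cl1 was not tested. Of the 6 tested astrocyte markers, 1 (Gfap) was called, beside 2.95% of all genes tested called up-regulated, and their median log2-fold change was 1.26. The part of astrocytes and of oligodendrocyte-lineage cells in the higher levels of Cxcl1, Cxcl2 and Cxcl10 was not tested.

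**Figure D2:**
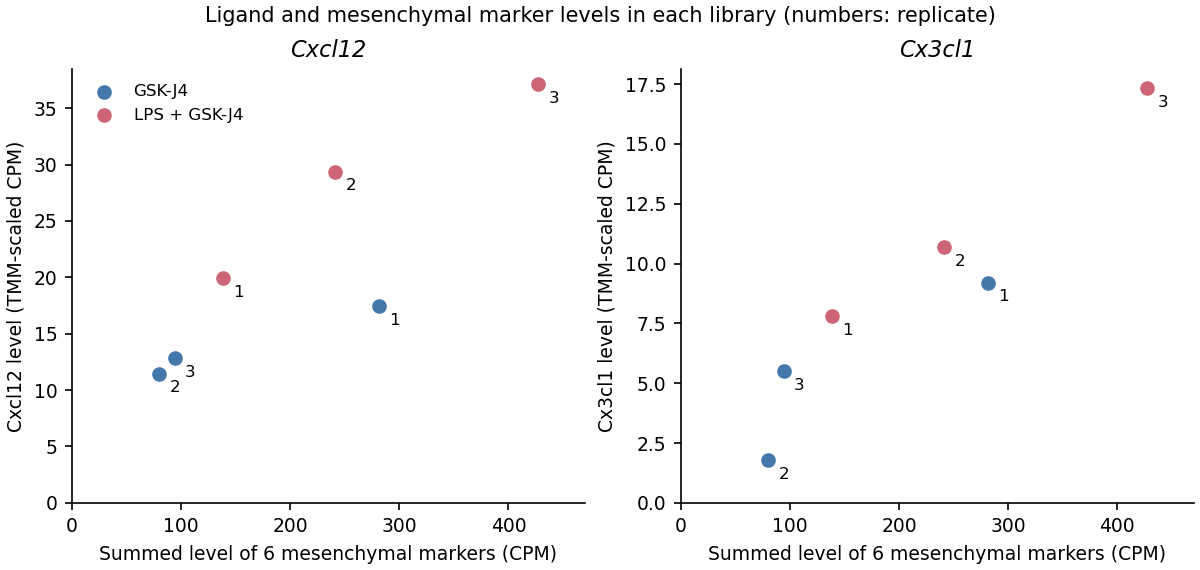
Level of Cxcl12 (left) and Cx3cl1 (right) in CPM against the summed level of 6 mesenchymal markers in CPM, 1 point for each library, numbered by replicate, GSK-J4 in blue and LPS + GSK-J4 in red. Within each group the library with the highest marker sum, 281 or 427 CPM, had the highest level of both ligand genes.

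Cxcl14 (chr13:56288643-56296551, minus strand), a conserved ligand made in resting epithelia and brain, was the steadiest member. It was at 27.4, 26.5 and 28.2 CPM in GSK-J4 and at 33.6, 30.9 and 31.0 CPM in LPS + GSK-J4, a log2-fold change of 0.22 (SE 0.16, adjusted p = 0.371). Cxcl16 (chr11:70453983-70459984, minus strand), a transmembrane ligand of Cxcr6 that also binds oxidised lipoprotein, was at 103, 87.1 and 78.1 CPM in GSK-J4 and at 123, 103 and 117 CPM in LPS + GSK-J4. Its lowest LPS + GSK-J4 library was just above its highest GSK-J4 library, and the log2-fold change was 0.35 (SE 0.14, adjusted p = 0.0779). Of the 7 tested members, 6 did not overlap between the groups and were higher in LPS + GSK-J4, the exception being Cx3cl1, beside 19.8% of all genes tested. Because Cxcl1, Cxcl10 and Cx3cl1 passed the filter only with their counts in LPS + GSK-J4, this number too is a description.

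Set on a scale per kb of exons, the order of the family was rearranged. In GSK-J4 Cxcl2 led with 41.9 ± 8.98 CPM per kb (SD, n = 3) and overlapped with Cxcl16 at 29.6 ± 4.15, followed by Cxcl14 at 14.98 ± 0.48. Cxcl1, Cxcl12 and Cx3cl1 came next with 1.93 ± 0.96, 1.70 ± 0.39 and 1.40 ± 0.94 CPM per kb and could not be separated by their spread. In LPS + GSK-J4 Cxcl2 led with 846 ± 33.2 CPM per kb, followed without overlap by Cxcl1 at 113 ± 5.65. Cxcl16 at 37.8 ± 3.32 and Cxcl10 at 29.8 ± 5.04 overlapped with each other, and Cxcl14 came after them with 17.4 ± 0.83 CPM per kb. Cxcl3, Cxcl11 and Cxcl9 were the lowest members in LPS + GSK-J4, each with less than 1 CPM per kb on average.

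The summed level of the 10 members was 107, 91.3 and 78.0 CPM per kb in the GSK-J4 libraries and 1071, 1061 and 1025 CPM per kb in the LPS + GSK-J4 libraries. Cxcl1, Cxcl2 and Cxcl3 together made up 49.8, 49.7 and 42.6% of it in GSK-J4 and 91.5, 92.0 and 90.2% in LPS + GSK-J4. The mean difference was 43.8 percentage points (2-sided exact permutation test, p = 0.1, the smallest value possible here), and it was 48.9 points without scaling by length. Cxcl12, Cxcl14, Cxcl16 and Cx3cl1 together fell from 52.1% ± 4.02 to 5.87% ± 0.45 of the sum, although none of them had a lower mean level. The ligands of Cxcr3 made up 0.485% ± 0.432 of the sum in GSK-J4 and 2.90% ± 0.53 of that in LPS + GSK-J4.

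**Figure D3:**
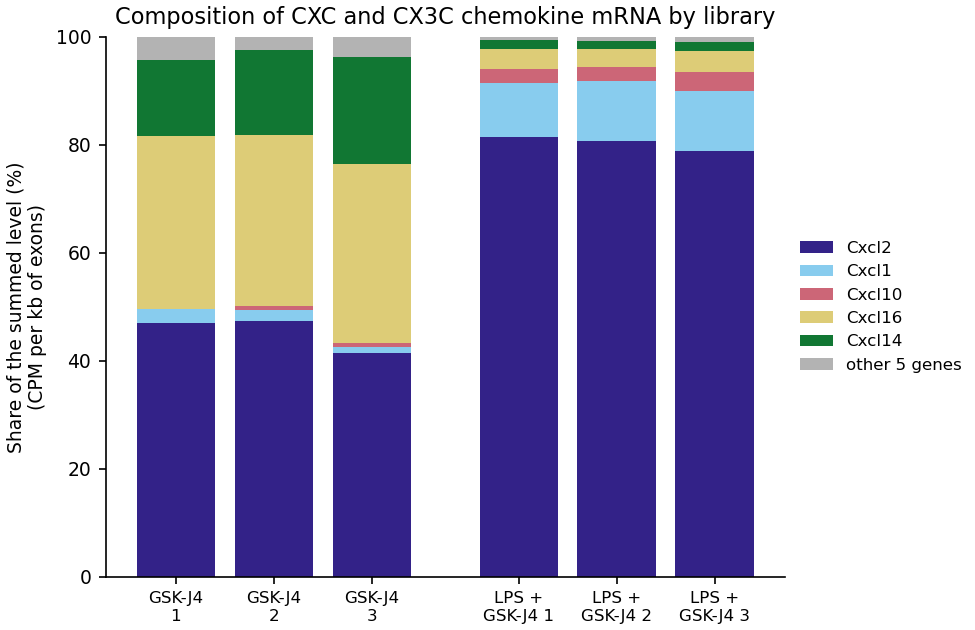
Share of each chemokine gene in the summed level of the 10 members in each library, in percent of CPM per kb of exons, stacked from 0. Cxcl2 takes 41.4 to 47.3% in the GSK-J4 libraries and 78.9 to 81.5% in the LPS + GSK-J4 libraries, and Cxcl16 falls from 31.6 to 33.1% to 3.21 to 3.79%.

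The receptors, further ligands, processing enzymes and signalling genes of the family were read from the same test. Of 27 such genes, 12 were tested, 1 was down-regulated and none was up-regulated. The call was Cxcr4, the receptor of Cxcl12, in a background of 0.809% of genes called down-regulated. Cxcr4 was at 625, 689 and 688 CPM in GSK-J4 and at 169, 167 and 141 CPM in LPS + GSK-J4, with a log2-fold change of -2.07 (SE 0.12, adjusted p = 2.25e-09). Its groups were far apart, and the log2-fold change lay between -2.12 and -1.99 without any 1 library. This is a 4.19-fold lower level in LPS + GSK-J4.

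Cx3cr1, the fractalkine receptor that marks microglia, was at 361, 367 and 359 CPM in GSK-J4 and at 270, 264 and 247 CPM in LPS + GSK-J4. It was lower with a log2-fold change of -0.48 (SE 0.11, adjusted p = 0.0035), below the fold threshold, and its adjusted p was between 0.0158 and 0.0244 without GSK-J4 replicate 1, GSK-J4 replicate 2 or LPS + GSK-J4 replicate 2. The receptors of the other members were close to absent. Cxcr2, the receptor of Cxcl1, Cxcl2 and Cxcl3, had 0 counts in 5 libraries and 2 counts in LPS + GSK-J4 replicate 1, and Cxcr1 had at most 1 count. Cxcr3 had 5, 5 and 6 counts in GSK-J4 and 2, 0 and 1 counts in LPS + GSK-J4, and Cxcr6 and Ackr3 had at most 2 and 3 counts in any library. Counts this low allow no fold change.

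The sheddases that cut Cxcl16 and Cx3cl1 from the membrane were both expressed. Adam10 went from 202 ± 19.2 to 139 ± 16.7 CPM (log2-fold change -0.54, adjusted p = 0.0056, below the fold threshold, and 0.0212, 0.0415 and 0.0304 without GSK-J4 replicate 1, GSK-J4 replicate 2 or LPS + GSK-J4 replicate 2), and Adam17 was at 138 ± 7.45 and 115 ± 22.3 CPM (adjusted p = 0.199). Dpp4, the peptidase that trims Cxcl10 and Cxcl12, had at most 1 count. Of the 6 further CXC ligands, Pf4 was tested and did not pass (log2-fold change 0.41, adjusted p = 0.476). Cxcl5, an ELR ligand in the same cluster, had 0, 0 and 1 counts in GSK-J4 and 0, 1 and 12 counts in LPS + GSK-J4, so that its level rested on a single library. None of the 7 genes of receptor signalling (Gnai2, Gnai3, Arrb1, Arrb2, Adrbk1, Grk6 and Rgs1) was called, with log2-fold changes between -0.31 and 0.11. In 4 of the 12 tested genes the groups did not overlap and LPS + GSK-J4 was lower, against 18.4% of all genes tested, and in none was it higher.

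**Figure D4:**
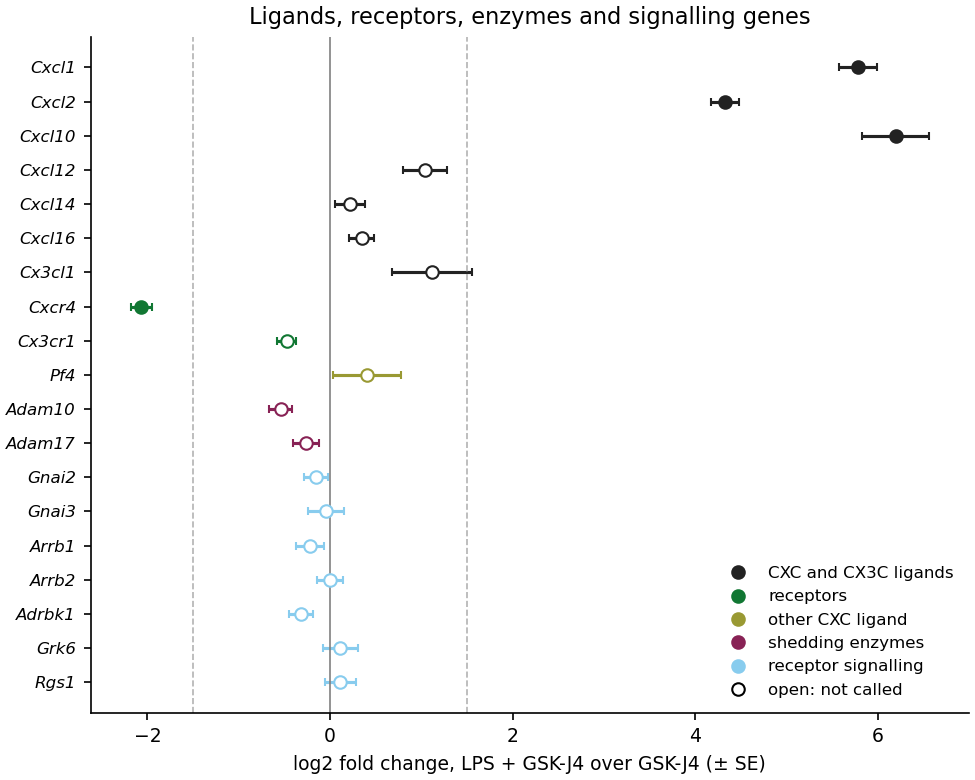
log2-fold change of LPS + GSK-J4 over GSK-J4 with its SE for the 7 tested members and the 12 tested receptor, ligand, enzyme and signalling genes; filled points were called, open points were not, and dashed lines mark the fold threshold of 1.5. Cxcl1, Cxcl2 and Cxcl10 lie at 4.33 to 6.19 and Cxcr4 at -2.07, while the remaining genes lie between -0.54 and 1.12.

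Genes around the members were examined next, because 6 members lie in clusters on chromosome 5. Of 78 protein-coding genes within 250 kb of the start of a member, 39 were tested and 2 were called, both up-regulated, beside 2.95% of all genes tested. Ereg, which encodes the EGF receptor ligand epiregulin and starts 183 kb from Cxcl1, was at 13.9, 7.86 and 8.43 CPM in GSK-J4 and at 22.6, 47.3 and 33.9 CPM in LPS + GSK-J4. Its groups did not overlap, and its log2-fold change was 1.76 (SE 0.28, adjusted p = 2.16e-04), which became 1.47 and was no longer called without LPS + GSK-J4 replicate 2. Ccl22, a CC chemokine that acts on Ccr4 and lies 20.3 kb from the start of Cx3cl1, was at 0.944, 1.12 and 0.733 CPM in GSK-J4 and at 4.68, 4.58 and 9.50 CPM in LPS + GSK-J4. The level in GSK-J4 rested on 2 to 5 counts per library, and the log2-fold change was 2.64 (SE 0.48, adjusted p = 6.87e-04). Ccl22 passed the filter through its counts in LPS + GSK-J4, so the number of called neighbours is a description.

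Around Cxcl1, Cxcl2 and Cxcl3, 4 of 11 neighbours were tested, with a median log2-fold change of 1.48 and a range of 0.41 to 1.84. The highest value was that of Areg, the amphiregulin gene beside Ereg, which was not called (adjusted p = 0.0122) and whose groups overlapped. Around Cxcl9, Cxcl10 and Cxcl11, 6 of 12 neighbours were tested, none was called, and the median was 0.29 with a range of -0.39 to 1.06. The neighbours of Cxcl16 on chromosome 11 had a median of -0.10 over 16 tested genes, none of them called. Those of Cx3cl1 on chromosome 8 had a median of 0.36 over 11 tested genes. Of the 11, Ccl22 was called, beside 2.95% of all genes tested called up-regulated. Without overlap, 5 were higher in LPS + GSK-J4, beside 19.8% of all genes tested. Among these 5, Ciapin1 and Arl2bp had log2-fold changes of 0.83 and 0.81 (adjusted p = 0.0015 and 0.0041), below the fold threshold. Of all genes tested, 8.42% were higher with an adjusted p of 0.01 or less. All genes tested had a median of -0.0006. Mthfd2l and Areg near Cxcl2, Naaa near Cxcl9 and Ccl22 near Cx3cl1 passed the filter only with their counts in LPS + GSK-J4. The medians of these neighbours are therefore descriptions. In both clusters of chromosome 5 the called chemokine genes stood above every tested neighbour within 250 kb, by at least 2.49 on the log2 scale. This gap is a description, because the chemokine genes compared were those already called for their fold change. Neighbours with few counts, such as Cxcl5, were not tested.

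**Figure D5:**
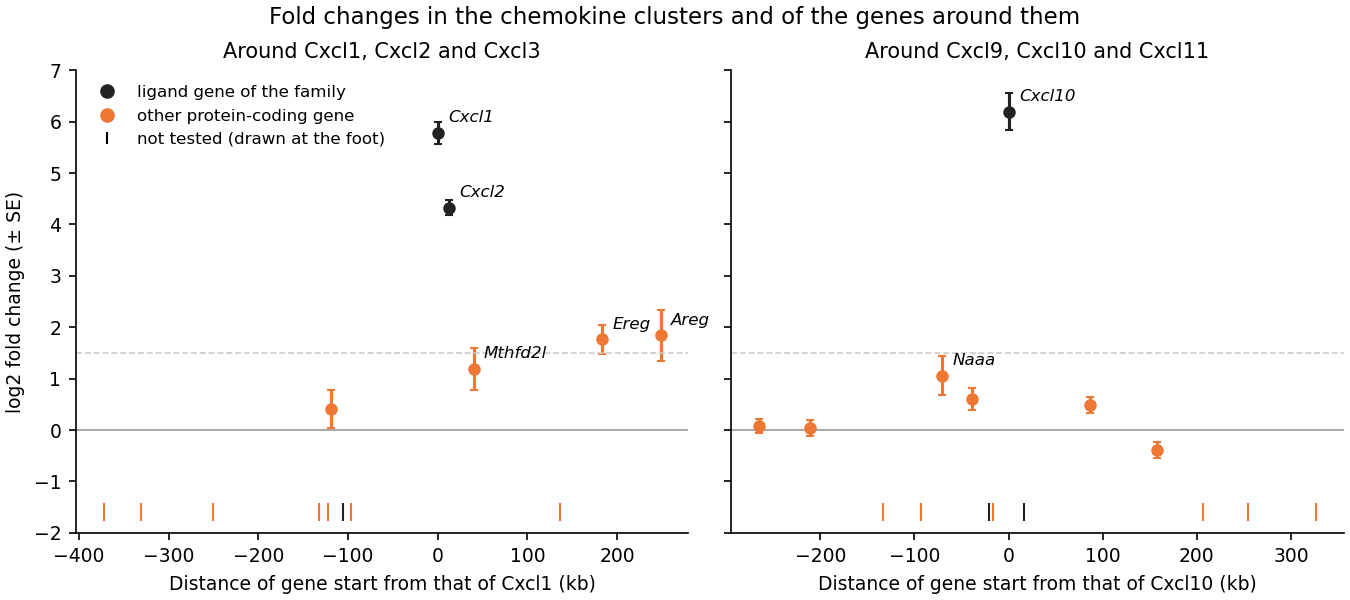
log2-fold change with its SE against the distance of the gene start from that of Cxcl1 (left) or Cxcl10 (right) in kb, for members in black and other protein-coding genes in orange; ticks at the foot are genes with too few counts to be tested. Cxcl1 and Cxcl2 at 5.78 and 4.33 and Cxcl10 at 6.19 lie above the tested neighbours, the highest of which is Areg at 1.84.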

How the data were processed

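Total RNA of 6 PM cultures was depleted of rRNA and made into strand-specific libraries that were sequenced from both ends. The authors trimmed the reads with Trimmomatic 0.33, aligned them to mm10 with STAR 2.5.1 and deposited the raw counts of fragments per gene, without normalization, in unstranded, same-strand and reverse-strand columns (versions from the submitters' processing notes). The annotation used for counting is not given in the sources used here. STAR leaves out fragments that map to several places or overlap several genes.

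The reverse-strand counts were used. Counts were scaled by TMM and tested with the robust quasi-likelihood test of edgeR 4.0.16 in R 4.3.3, after filterByExpr (minimum count 10, minimum total 15), without covariates, over all 6 libraries, and p-values were adjusted by Benjamini-Hochberg over the 10133 genes tested. DESeq2, the tool of the study's methods, was run as an alternative (version 1.42.0). The SE is the absolute log2-fold change divided by the square root of the F statistic. Scripts were tested on simulated data. Depth lay between 2597505 and 3472716 counts per library, and intervals cover counting error only. Levels per kb use the summed exon length in GENCODE, whose mm10 positions are printed. The alternatives tried were the DESeq2 Wald test, DESeq2's size factors, unstranded counts, no filter or at least 10 counts in every library, looser thresholds, a replicate block, removal of Rn45s, Mir6236 and Lars2, no length scaling, and leaving out each library.

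The members, gene lists and tests were chosen with earlier results of these data known. The genes named are the members, the receptors of members, every called partner or neighbour gene, Gfap and microglial markers. Cdh5, the other non-microglial markers, Adam10, Adam17, Dpp4, Pf4, Cxcl5, Areg, Mthfd2l, Naaa, Art3, Ciapin1, Arl2bp and the receptor signalling genes are named outside this rule, after their values were seen. Results that need 1 gene of the microglial marker list are not reported here.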

Additional observations from a re-analysis of the deposited data

Results flagged for a closer look

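Fragments on the strand opposite to Cxcl1 were seen in every LPS + GSK-J4 library, with 8, 10 and 10 counts in replicates 1, 2 and 3, against 1, 0 and 0 counts in GSK-J4. They stand out because each LPS + GSK-J4 library was above each GSK-J4 library and above the lower limit of 3 counts, in a column that no comparison here used. The sense counts of the gene rose in the same libraries, and antisense fragments made up 2.22% of all fragments on Cxcl1 in GSK-J4 and 1.70% of those in LPS + GSK-J4, beside 0.966 to 1.38% over all genes of a library. For Cxcl2 the antisense counts were 8, 5 and 1 in GSK-J4 and 30, 38 and 8 in LPS + GSK-J4, so that the groups touched, and the shares were 1.36 and 0.568%. The other members had between 0 and 9 antisense counts in any library.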

How the results depend on the processing

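Of 138 values recomputed under the alternatives, none reversed in direction. Counts of called genes stayed within 1.5 times the reported count, and single members on their side of the joint p and fold threshold, in all but the cases below and Cx3cl1 without GSK-J4 replicate 1, which was then called (1.82). At the adjusted p of 0.01 alone, Cxcl12 passed in all but 3 settings, Cxcl16 with the replicate block (0.0092) and Cx3cl1 without a filter (0.0056). The 3 called members became 1 (Cxcl2) where every library had to hold at least 10 counts, since Cxcl1 and Cxcl10 then were not tested. The single called receptor or partner gene became 2 without a filter on low counts, with Cxcl5 added. The 2 called neighbours became 1 with at least 10 counts in every library, and 4 without a filter or under looser thresholds (adjusted p up to 0.05 and log2-fold change from 1). Leaving out single libraries gave 1 to 3 called neighbours, with Ereg lost without LPS + GSK-J4 replicate 2. The gain of the ELR ligands in the summed level was 43.8 percentage points, and 48.9 without scaling by length.

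The test without a filter and the DESeq2 Wald test shifted the median log2-fold change of the genes tested to 0.12 and 0.13, and both kept Cxcl1, Cxcl2 and Cxcl10 called. With the replicate number as a block, 3 members, 1 partner gene and 3 neighbours were called, with Areg added. The deviations of libraries with the same number correlated at -0.0102, 0.117 and 0.295. No correlations of libraries with unlike numbers were set beside these, so whether the numbers pair the samples was not decided. The main test uses no block. With the block, the adjusted p of the same test was 2.71e-05 for Cx3cr1, 1.58e-05 for Adam10 and 0.0037 for Ereg. Depth limits Cxcl3, Cxcl9 and Cxcl11, which had at most 13, 3 and 6 counts in a library.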
